A study of Mus musculus with 3 samples.

Results

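Heterotrimeric G proteins and their RGS regulators were followed as 53 genes among the 32531 gene symbols of the tables. The genes were matched by symbol and comprised 16 alpha subunits, 5 beta subunits, 12 gamma subunits and 20 regulators of G protein signalling (RGS) whose symbol is Rgs and a number. Their messages were measured in RNA recovered by translating ribosome affinity purification (TRAP), in which polysomes carrying an EGFP-tagged ribosomal protein L10a are pulled down with antibodies to EGFP. The mice were untreated adults of the Slc17a6-EGFP/Rpl10a transgenic line JX883, and the tissue was dissected prefrontal cortex. The tag is made in cells that use the regulatory sequence of Slc17a6, the gene of the vesicular glutamate transporter VGLUT2, and it comes from a single transgenic line. All 3 libraries, each from a pool of 3 mice, form 1 group. Neither input RNA nor untagged tissue nor another genotype was analysed here. A level therefore says how much of a message the precipitate held, not how enriched it was, and RNA carried along without a tagged ribosome cannot be told apart from bound RNA. Differences in the make-up of cells and in RNA per cell cannot be told apart either.

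A heterotrimeric G protein is made of an alpha subunit that binds GTP and of a beta and gamma subunit that stay together as a dimer. An activated receptor makes the alpha subunit exchange GDP for GTP, after which alpha and the beta-gamma dimer act on separate effectors. Alpha subunits are grouped by effector: the Gi/o class lowers cyclic AMP and releases beta-gamma dimers that open GIRK potassium channels, the Gs class stimulates adenylyl cyclase, and the Gq/11 class activates phospholipase C beta. The G12/13 class is known for its action on the cytoskeleton. RGS proteins speed up GTP hydrolysis by the alpha subunit and so shorten the signal. In cortical neurons these proteins stand behind the receptors for glutamate, GABA, acetylcholine, monoamines, opioids and cannabinoids.

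Named genes took 12592174 counts in replicate 1, 8964137 in replicate 2 and 12648577 in replicate 3. Levels are in CPM, the counts of a gene scaled to a library total of 1000000 over named genes, and a gene with 0 counts may have up to 0.238, 0.335 and 0.237 CPM in these libraries, for counting error only. P-values of variation below measure the spread between these 3 pools only. Those of ratios between genes concern the direction of the ratio in the same 3 pools. Of the 10 markers of cortical glutamatergic neurons, 10 reached 1 CPM in every library, with summed levels of 5335 to 5706 CPM. Sums were 937 to 993 CPM for 10 GABAergic markers, 680 to 958 CPM for 10 markers of striatal projection neurons, 1356 to 1552 CPM for 8 astrocyte markers and 33.1 to 41.7 CPM for 8 microglial markers. Endothelial and mural markers, 8 each, summed to 10.2 to 12.6 and 11.8 to 18.7 CPM, and 5 blood cell markers to 1.03 to 4.59 CPM. C1qa of microglia, Cd3e and S100a8 of blood cells, Gbx2 of thalamus and Pou4f1 of habenula had 0 counts. Of the 8 thalamic markers, however, 6 reached 1 CPM in every library, with summed levels of 479 to 506 CPM, and of 6 habenular markers 4 did. Thalamic Tcf7l2 was at 7.86, 32.4 and 20.6 CPM. In the tests of variation described below, edgeR called it (adjusted p = 0.0429) and limma did not (adjusted p = 0.251). It was not the only marker called. The olfactory bulb marker Cdhr1, at 116, 95.9 and 17.3 CPM, was called in edgeR (adjusted p = 2.28e-15) and limma (adjusted p = 5.25e-06). The activity-induced genes Egr2 and Nr4a1 were called in edgeR (adjusted p = 0.0126 and 0.0396) and not in limma (adjusted p = 0.104 and 0.295).

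Most of the 53 genes were present in the immunopurified RNA. At 1 CPM or more in every library stood 38 of them, or 71.7%, against 37.9% of all gene symbols. By mean level, 18 genes were at 100 CPM or more, 14 between 10 and 100 CPM, 8 between 1 and 10 CPM and 13 under 1 CPM. Of those 13, 5 had 0 counts in all 3 libraries: Gnat3, Gngt1, Rgs1, Rgs18 and Rgs21. The summed level was 7720 ± 173 CPM (SD, n = 3) for alpha subunits, 1258 ± 37.9 CPM for beta subunits, 1729 ± 120 CPM for gamma subunits and 1531 ± 40.0 CPM for RGS genes. Folds and orders between genes are given as CPM per kilobase (kb) of merged exons, since a long message gathers more reads than a short one, with other lengths named where they change the order. Plain CPM describes each gene by itself.

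**Figure D1:**
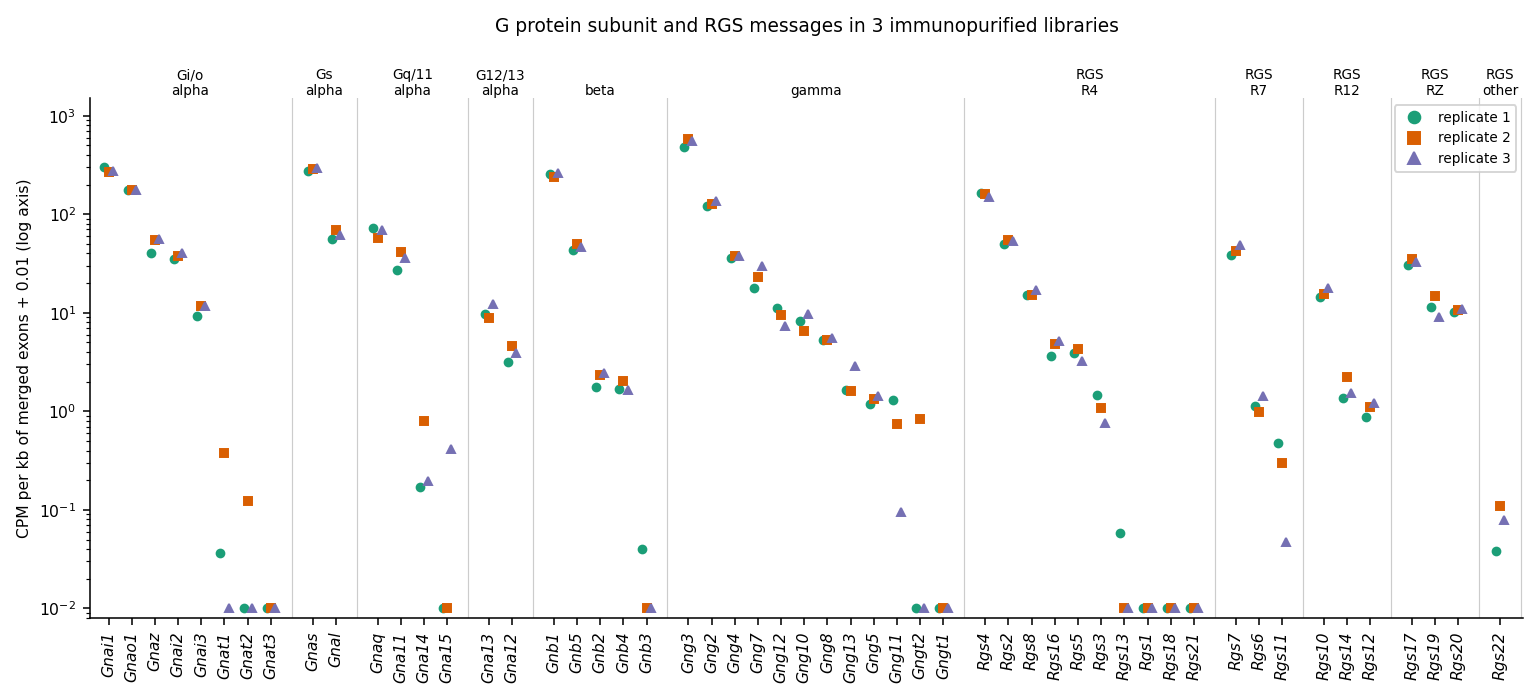
Level of each of the 53 genes in CPM per kb of merged exons, plus 0.01, on a log axis, with 1 point per library, grouped by class and sorted by mean within a class. Gng3 (484 to 573 CPM per kb) is the highest, and the 3 points of an abundant gene such as Gnao1 lie close together while genes of 1 class lie far apart.

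Among Gi/o alpha subunits, 5 of 8 reached 1 CPM in every library. Gnai1, an inhibitory alpha subunit that lowers cyclic AMP (ENSMUSG00000057614.6, mm10 chromosome 5, 18265135 to 18360355), was at 942, 834 and 861 CPM in replicates 1, 2 and 3, or 301, 266 and 275 CPM per kb. Gnao1, the Go alpha subunit that is abundant in neurons (chromosome 8, 93809966 to 93969388), was at 1936, 1932 and 1941 CPM, or 175, 175 and 176 CPM per kb. Gnao1 was thus nearly level across the libraries, with an SD of 4.42 CPM around a mean of 1936 CPM. The order of these genes per kb rests on the length used: with the longest transcript in place of merged exons, Gnao1 was at 350 and Gnai1 at 280 CPM per kb.

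Gnaz, the Gz alpha subunit, which lacks the cysteine that pertussis toxin modifies in its relatives, was at 147, 199 and 201 CPM. Gnai2 was at 131, 142 and 154 CPM, and Gnai3 at 29.9, 37.9 and 38.2 CPM. Replicate 1 was the lowest library for all 3 of these genes. Gnao1 exceeded Gnai2 by 2.22 ± 0.11 log2 units per kb, or 4.64-fold, and Gnaz by 1.81 ± 0.25 units, or 3.50-fold. Gnai1 exceeded Gnai2 by 2.89 ± 0.19 units, or 7.42-fold. Per kb Gnaz stood just above Gnai2, with a lowest value of 40.72 against a highest value of 40.67 CPM per kb, but with the longest transcript Gnai2 was the higher of them (64.3 against 51.8 CPM per kb). The transducin subunits of photoreceptors, Gnat1 and Gnat2, and Gnat3, the gustducin alpha subunit of taste cells, had 10 counts or fewer in any library. Gnat1 reached 1.12 CPM in replicate 2, with 0.0794 and 0 CPM in replicates 1 and 3, and Gnat2 had counts in replicate 2 only (0.335 CPM).

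Both Gs alpha genes were detected in every library. Gnas, the stimulatory alpha subunit (chromosome 2, 174284320 to 174346744), was at 3089, 3214 and 3328 CPM, or 276, 287 and 298 CPM per kb. Gnal, the Golf alpha subunit known from striatum and olfactory epithelium (chromosome 18, 67088216 to 67226792), was at 627, 777 and 695 CPM. Gnas exceeded Gnal by 2.20 ± 0.13 log2 units per kb, or 4.60-fold, and the ranges of the genes did not overlap. Gnas has several first exons and yields several proteins, and the tables hold 1 count for the locus. Of its exonic bases, 22.0% are shared with genes on the opposite strand, among them the antisense RNA gene Nespas, and the use of strand in counting is not given in the sources used here.

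Among Gq/11 alpha subunits, Gnaq and Gna11, which both activate phospholipase C beta, were the detected pair. Gnaq was at 449, 357 and 426 CPM and Gna11 at 112, 170 and 146 CPM. Replicate 2 was the lowest library for Gnaq and the highest for Gna11. The log2 ratio of Gnaq to Gna11 per kb was accordingly 1.40, 0.47 and 0.94, with a mean of 0.94 ± 0.46, or 1.92-fold. Gna14 was at 0.556, 2.68 and 0.632 CPM. Gna15, known from blood cells, had counts in replicate 3 only (0.870 CPM), where the 5 blood cell markers summed to 4.59 CPM; their part in the value was not tested.

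The G12/13 class was low. Gna13 (chromosome 11) was at 62.7, 56.8 and 78.0 CPM and Gna12 at 10.8, 15.8 and 13.4 CPM. Gna13 exceeded Gna12 by 2.55-fold per kb (log2 ratio of Gna12 to Gna13 -1.35 ± 0.39). Of the exonic bases of Gna12, 13.3% are shared with Amz1.

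As a share of the summed CPM per kb of all alpha subunits, the Gi/o class held 54.4% ± 1.17, the Gs class 34.3% ± 1.09, the Gq/11 class 9.97% ± 0.138 and the G12/13 class 1.39% ± 0.142 (SD, n = 3). Each share varied little between libraries, and the order of the classes was the same in all 3. It was not the same under another length. With the longest transcript the Gs class held 51.3% and the Gi/o class 41.6%, and in CPM without length they held 50.6% and 41.1%. The merged exons of Gnas span 11186 bases and its longest transcript 3947.

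**Figure D2:**
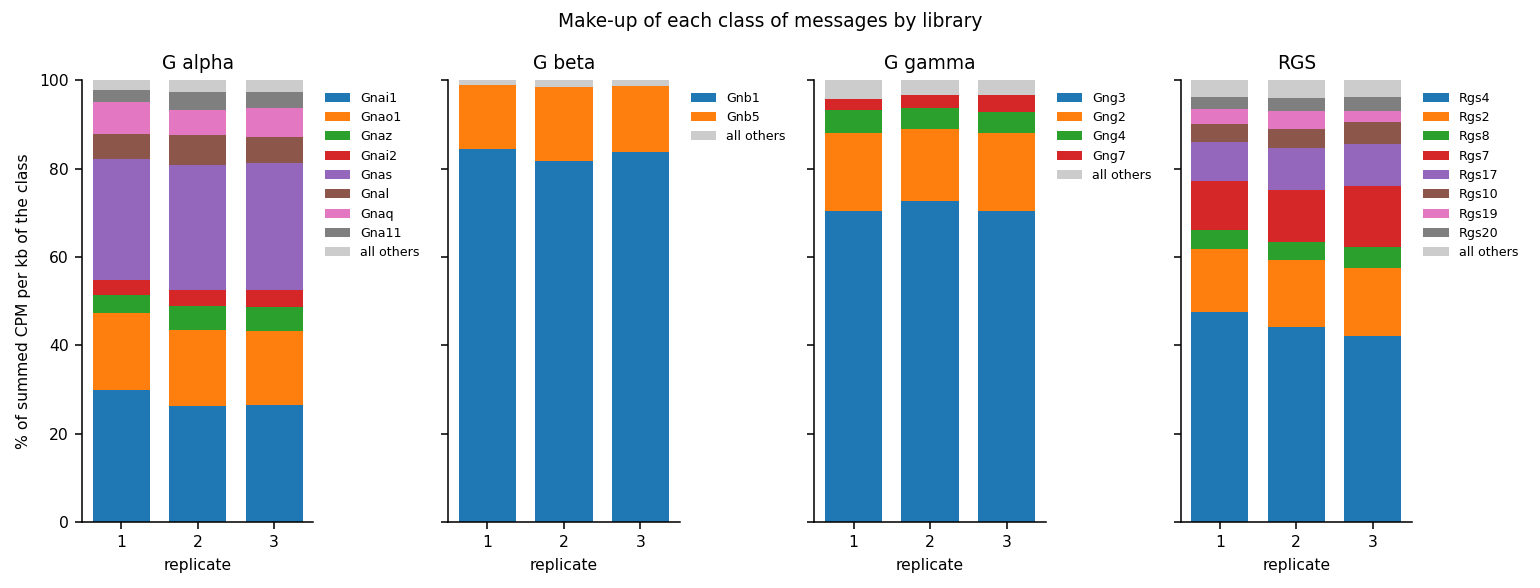
Share of each gene in the summed CPM per kb of its class, in percent, for replicates 1, 2 and 3. Rgs4 shows the widest band among RGS genes (42.2 to 47.5%), Gnb1 holds 81.6 to 84.5% of beta subunits and Gng3 holds 70.4 to 72.8% of gamma subunits.

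The beta subunits were dominated by Gnb1. Gnb1 (chromosome 4, 155491361 to 155559269) was at 1097, 1030 and 1119 CPM, and it held 83.3% ± 1.50 of the summed CPM per kb of beta subunits. Gnb5, the beta subunit that pairs with RGS proteins of the R7 family in place of a gamma subunit, was at 136, 156 and 146 CPM and held 15.4% ± 1.35. Gnb4 was at 21.2, 25.4 and 20.6 CPM. Gnb2 (chromosome 5, 137528127 to 137533510) was at 6.04, 7.92 and 8.38 CPM, and Gnb3, known from cone photoreceptors and retinal ON bipolar cells, had 1 count in all. Gnb1 exceeded Gnb2 by 6.77 ± 0.25 log2 units per kb, or 109-fold, Gnb4 by 7.14 ± 0.23 units and Gnb5 by 2.43 ± 0.15 units, or 5.40-fold. Of the exonic bases of Gnb2, 3.94% are shared with other genes on the same strand, and the part of this in its count was not tested. Gnb2 and Gnb4 could not be ordered, since their ranges per kb overlapped.

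Gamma subunits anchor the dimer to the membrane through a lipid at their carboxyl end. Gng3, a gamma subunit of neurons (chromosome 19, 8836933 to 8839194), was at 795, 941 and 909 CPM. It had the highest level per kb of all 53 genes, at 484, 573 and 553 CPM per kb, and held 71.2% ± 1.34 of the summed CPM per kb of gamma subunits. With the longest transcript as length Gnas was above it, at 813 against 537 CPM per kb. Gng2 (chromosome 14) was at 532, 561 and 602 CPM and held 17.1% ± 0.760. Gng4 was at 120, 127 and 126 CPM. Gng3 exceeded Gng2 by 2.06 ± 0.09 log2 units per kb, or 4.16-fold, and Gng4 by 3.84 ± 0.08 units, or 14.3-fold. The message of Gng3 is short, and in CPM without length its excess over Gng2 was 0.64 units. Gng3 shares 24.2% of its exonic bases with Bscl2 and Gng2 shares 20.4% with Gm48283, in both cases on the opposite strand.

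The other gamma subunits were lower. Gng7, the partner of the Golf alpha subunit in striatal neurons, was at 67.5, 87.0 and 112 CPM. Its highest library was replicate 3, and Gng2 exceeded it by 2.48 ± 0.28 log2 units per kb, or 5.56-fold. Gng12 was at 52.9, 44.4 and 34.5 CPM, with replicate 3 the lowest. Gng10 was at 10.9, 8.48 and 12.7 CPM, but 72.0% of its exonic bases are shared with the annotated gene Gm20503 on the same strand, so its count is uncertain. Gng8, known from olfactory and habenular neurons, was at 8.02, 8.03 and 8.46 CPM, beside summed levels of 13.4 to 25.6 CPM for 6 habenular markers and of 182, 155 and 71.2 CPM for 8 olfactory bulb markers; their part in Gng8 was not tested. Gng5 was at 3.26, 3.68 and 3.95 CPM. Gng13, a gamma subunit of sensory cells, was at 1.27, 1.23 and 2.21 CPM, with 51.6% of its exonic bases shared with Chtf18. Gng11 was at 1.19, 0.669 and 0.0791 CPM, falling from replicate 1 to 3. The sums of 8 endothelial markers rose over the same libraries, at 10.2, 11.8 and 12.6 CPM. Of these markers 2 reached 1 CPM in every library, and their part in Gng11 was not tested. Gngt2 had 14 counts in replicate 2 (1.56 CPM) and 0 in the others.

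Of the RGS genes, 14 of 20 reached 1 CPM in every library, and Rgs4 led. The R4 group consists of small RGS proteins with little beside the RGS domain. Rgs4, known from cortical pyramidal neurons and acting on Gi/o and Gq/11 alpha subunits (chromosome 1, 169741477 to 169747642), was at 512, 498 and 458 CPM and held 44.6% ± 2.68 of the summed CPM per kb of RGS genes. Rgs2, which prefers Gq alpha subunits and is induced by neuronal activity, was at 179, 198 and 193 CPM and held 14.8% ± 0.529. The 10 activity-induced genes summed to 2280, 2367 and 1855 CPM. The most abundant of them differed, with Egr1 at 1293, 1291 and 956 CPM and Egr3 at 544, 691 and 624 CPM. The part of neuronal activity in the values of Rgs2 was not tested. Rgs8 was at 147, 145 and 164 CPM and Rgs16 at 8.42, 11.3 and 11.9 CPM. Per kb Rgs4 exceeded Rgs2 by 1.59 ± 0.14 log2 units, or 3.01-fold, Rgs8 by 3.32 ± 0.18 units, or 10.01-fold, and Rgs16 by 5.08 ± 0.33 units, or 33.8-fold. The ranges of Rgs4, Rgs2 and Rgs8 per kb did not overlap.

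Rgs5, a pericyte marker in brain, was at 17.9, 19.6 and 14.5 CPM, against a summed level of 14.5, 18.7 and 11.8 CPM for 8 mural markers, of which 3 reached 1 CPM in every library. The part of mural RNA in Rgs5 was not tested. Rgs3 was at 15.7, 11.5 and 8.14 CPM. With the longest transcript in place of merged exons its level was 2.51 CPM per kb and not 1.09. Rgs13 had 1 count in all, and Rgs1, Rgs18 and Rgs21, known from blood cells or taste cells, had none.

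The R7 group carries extra domains through which it binds Gnb5 and a membrane anchor, and not every gene of that family is among the 53. Rgs7 (chromosome 1, 175059087 to 175492500) was at 234, 256 and 291 CPM. It exceeded Rgs6, at 11.1, 9.82 and 14.2 CPM, by 5.16 ± 0.18 log2 units per kb, or 35.8-fold. Its excess over Rgs11 was 6.04, 6.70 and 8.27 units, a wide spread, with Rgs11 at 1.99, 1.23 and 0.158 CPM. Without replicate 3 its mean was 6.37 units. Rgs7bp, the anchor of R7 proteins, was at 375, 348 and 304 CPM, and Gpr158, an orphan receptor that also anchors them, at 232, 263 and 246 CPM. Rgs7, Gnb5 and both of these partners were thus above 100 CPM in every library.

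The R12 group was lower in summed CPM per kb than the RZ group. Rgs10, a small R12 protein known from microglia and neurons, was at 24.7, 26.3 and 30.2 CPM, beside a summed level of 33.1, 35.4 and 41.7 CPM for 8 microglial markers, of which 6 reached 1 CPM in every library and C1qa was at 0; their part in Rgs10 was not tested. Rgs12 was at 7.31, 9.37 and 10.1 CPM and Rgs14, known from hippocampal area CA2, at 5.80, 9.37 and 6.40 CPM. Rgs10 exceeded Rgs14 by 9.03-fold per kb. Rgs14 exceeded Rgs12 by 0.69 ± 0.31 log2 units per kb, but in CPM without length it was the lower of them by 0.31 units. Rgs17, an RZ protein that acts on Gz and Gi/o alpha subunits, was at 252, 289 and 275 CPM, Rgs20 at 42.9, 44.8 and 46.3 CPM and Rgs19 at 25.4, 32.9 and 20.4 CPM. Rgs17 exceeded Rgs20 by 1.62 ± 0.07 log2 units per kb, or 3.08-fold. Rgs22, which falls in none of these groups, had fewer than 1 CPM in every library.

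The RGS shares were 66.6% ± 1.96 for the R4 group, 12.6% ± 1.38 for the 3 R7 genes, 5.25% ± 0.514 for R12 and 15.5% ± 0.892 for RZ. With the longest transcript R4 held 58.9%, R7 16.7% and R12 8.06%. The mean share of R7 was then slightly above that of RZ, so the order of these groups rests on the length used.

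The ratios above belong to 20 pairs of paralogs or genes of like role. Each had 1 direction in 3 of 3 libraries, 18 with the gene named first in the pair higher and 2 with the other higher, which were Gna12 against Gna13 and Rgs14 against Rgs10. The exact two-sided sign-flip permutation p was 0.25 for every pair, the smallest value that 3 libraries allow, and it stayed 0.25 after adjustment over the 20 pairs, so no pair could pass 0.05. In the order of levels per kb within a class, both genes of 28 neighbouring pairs passed 1 CPM in all 3 libraries. The ranges over libraries overlapped in 4 of them, which were Gnb2 and Gnb4, Gng12 and Gng10, Rgs16 and Rgs5, and Rgs19 and Rgs20. The order of 4 pairs turned with the longest transcript, which were Gnai1 and Gnao1, Gnaz and Gnai2, Gng10 and Gng8, and Rgs19 and Rgs20.

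**Figure D3:**
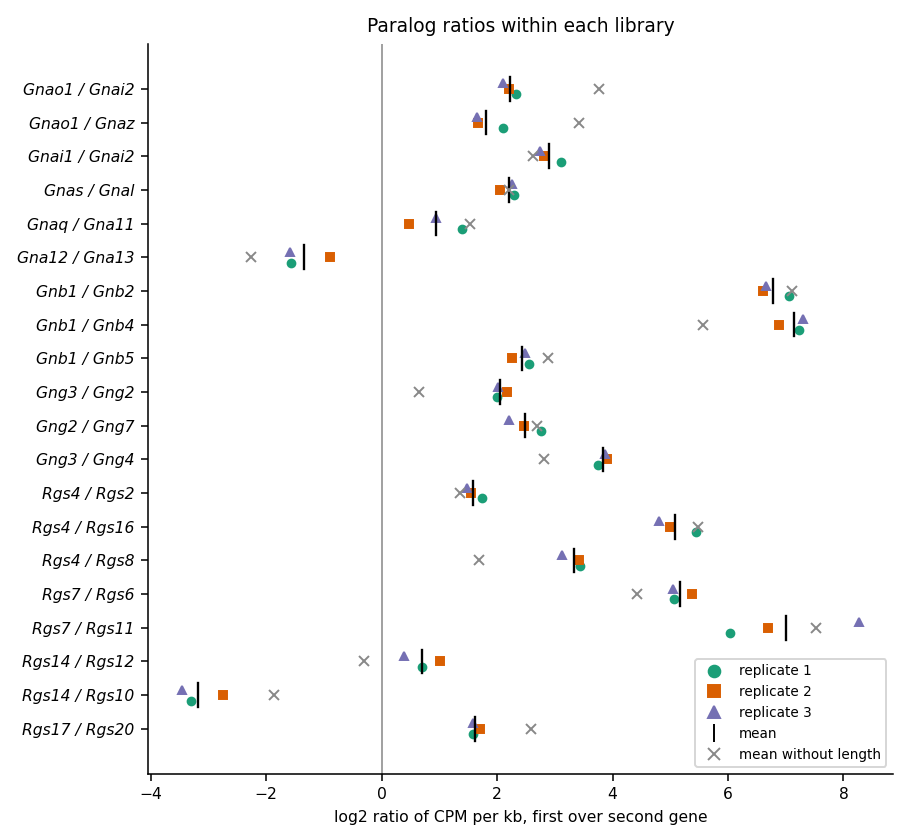
Log2 ratio of CPM per kb for the 20 pairs, first gene over second, with 1 point per library, a bar at the mean and a cross at the mean ratio of CPM without length. Gnb1 over Gnb2, Gnb1 over Gnb4 and Rgs7 over Rgs11 have mean ratios between 6.77 and 7.14, and the cross of Rgs14 over Rgs12 lies on the other side of 0 from its points.

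Several of the 53 genes arose by tandem duplication and still lie side by side. With a gap of at most 300 kb, a limit chosen after the data were seen, 21 of them fell into 9 groups of neighbours on 7 chromosomes. In 6 of the 9 groups exactly 1 gene reached 1 CPM in every library. The group with the most genes was that of 5 R4 genes on chromosome 1 (143999338 to 144775435), where Rgs2 averaged 190 CPM, Rgs13 had 1 count and Rgs1, Rgs21 and Rgs18 had none. Each of the 3 transducin and gustducin genes lies beside an inhibitory alpha gene: Gnat3 (0 counts) beside Gnai1 (879 CPM on average), Gnat1 (0.398 CPM) beside Gnai2 (142 CPM) and Gnat2 (0.112 CPM) beside Gnai3 (35.4 CPM). Likewise Gna15 (0.290 CPM) lies beside Gna11 (143 CPM) and Gna14 (1.29 CPM) beside Gnaq (410 CPM).

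The other 3 groups differed from this. Rgs4 (489 CPM) and Rgs5 (17.3 CPM), and Rgs8 (152 CPM) and Rgs16 (10.5 CPM), were both above 1 CPM in every library. Gngt1 (0 counts) and Gng11 (0.647 CPM) were both below it in at least 1 library. Among the 21 genes with a close neighbour, 11 were below 1 CPM in a library. Among the other 32 there were 4 such genes: Gnb3, Gngt2, Rgs11 and Rgs22. These counts describe the positions and carry no test.

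**Figure D4:**
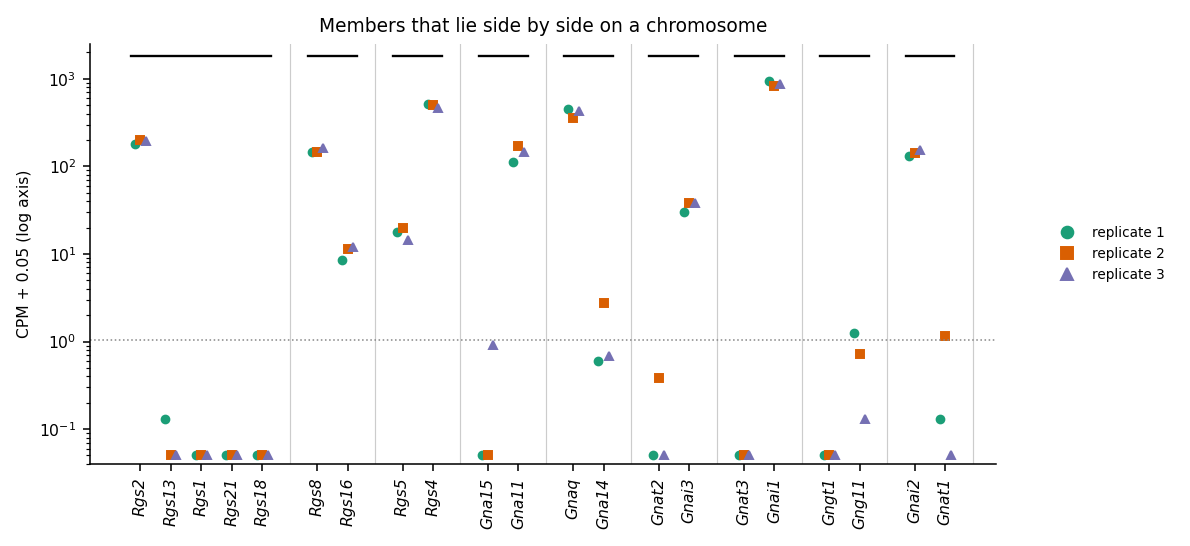
CPM plus 0.05, on a log axis, of the 21 members in 9 groups of chromosomal neighbours (bars at the top), with 1 point per library and a dotted line at 1 CPM. In the group at the left Rgs2 stands at 179 to 198 CPM, while the other 4 genes lie at or next to 0.

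The sequences before the start sites of 2 such pairs are shown because 1 gene of each pair was well above 100 CPM and the other had at most 1 count. They are the last 200 bases before the start in RefSeq's annotation of GRCm38.p6, 5′ to 3′ on the strand of the gene, with each CG dinucleotide in capitals. Gnai1 is at chr5:18360414-18360613 on the minus strand, Gnat3 at chr5:17962370-17962569 on the plus strand, Rgs2 at chr1:144004150-144004349 on the minus strand and Rgs13 at chr1:144177373-144177572 on the minus strand.
Gnai1: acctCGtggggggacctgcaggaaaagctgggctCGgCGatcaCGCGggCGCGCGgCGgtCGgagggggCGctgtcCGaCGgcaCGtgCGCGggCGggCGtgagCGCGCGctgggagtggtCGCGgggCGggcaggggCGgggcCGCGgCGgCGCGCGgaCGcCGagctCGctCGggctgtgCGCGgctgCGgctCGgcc
Gnat3: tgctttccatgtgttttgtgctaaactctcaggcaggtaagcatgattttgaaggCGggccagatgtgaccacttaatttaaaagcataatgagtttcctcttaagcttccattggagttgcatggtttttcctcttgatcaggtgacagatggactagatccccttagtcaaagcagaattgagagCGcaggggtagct
Rgs2: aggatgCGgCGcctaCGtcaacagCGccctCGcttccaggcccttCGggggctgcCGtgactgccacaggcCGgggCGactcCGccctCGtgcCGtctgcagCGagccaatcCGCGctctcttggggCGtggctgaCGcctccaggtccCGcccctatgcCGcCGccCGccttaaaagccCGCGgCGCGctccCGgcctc
Rgs13: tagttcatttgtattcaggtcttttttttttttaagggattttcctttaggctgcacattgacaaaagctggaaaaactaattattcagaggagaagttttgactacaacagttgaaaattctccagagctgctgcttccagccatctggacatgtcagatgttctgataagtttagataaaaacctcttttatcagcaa

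The promoter stretch of Gnai1 held 39 CG dinucleotides and that of Gnat3 held 2. That of Rgs2 held 26, and that of Rgs13 held 0. RefSeq promoters of 300 bases, from 250 before the start to 50 after it, were found for 39 of the 53 genes, and where a gene had several the one with the most CG was used. Of the 38 detected members 32 had a promoter, with a median of 28 CG. Among the 15 below 1 CPM in a library 7 had one, with a median of 4 CG and a highest value of 8. Over all genes the medians were 23 CG in 9169 detected genes and 4 CG in 7897 others. Abundant members with few CG also occurred: Gng3 had 2, Gng2 had 5 and Gnb5 had 5. The cyclic AMP response element TGACGTCA, whose reverse complement has the same letters, was in the listed window of 0 of the 39 members, against 3.77% of all detected genes and 1.28% of the others. This says only that these letters are not in these windows.

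Variation between the 3 libraries was tested with the goodness of fit of a negative binomial model in edgeR, over 14774 genes with at least 10 counts in a library, of which 44 are members. The model asks whether a gene varied more than genes of like abundance. No member passed: 0 of 44 at an adjusted p of 0.05, against 0.244% of all genes tested, and the lowest adjusted p of a member was 0.376 in edgeR, for Gngt2. At an unadjusted p of 0.05, 5 of 44 members (11.4%) stood out, against 7.22% of all genes. They were Gngt2, Gng7, Gna15, Gnat1 and Gna11, and 3 of them averaged under 1 CPM. Gngt2 (14 counts), Gna15 (11) and Gnat1 (10) passed the minimum through a single library, so the filter let them in by the variation that the test measures, and the 11.4% is not read against the background. The limma variance test called 0 members at an adjusted p of 0.05, against 0.0812% of all genes, and 2 at an unadjusted p of 0.05, Gng7 and Gna11, against 4.85%. When 1 dispersion was used for all genes, edgeR called 4 members, Gngt2, Gna15, Gnat1 and Rgs11, against 7.43% of all genes. None of these 4 has at least 10 counts in every library.

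The median range of log2 CPM over the libraries was 0.30 for the 32 members averaging 10 CPM or more and 0.35 for all 8742 such genes. Over all genes tested it was 0.38 for members and 0.51 for all, with median levels of 39.6 and 16.2 CPM. Of members averaging 5 CPM or more, the widest ranges were those of Rgs3 (0.91 log2 units), Gng7 (0.73), Rgs19 (0.68), Rgs14 (0.65), Gng12 (0.61) and Gna11 (0.60), all with values given above. The narrowest range among tested members was that of Gnao1, at 0.0066 log2 units.

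Gng7 was the member above 5 CPM with the smallest p (adjusted p = 0.537 in edgeR). Its 67.5, 87.0 and 112 CPM were lowest in replicate 1 and highest in replicate 3. Of the 10 markers of striatal projection neurons, in which Gng7 is known to be high, 10 reached 1 CPM in every library, 8 were highest in replicate 3 and 0 were highest in replicate 1. Striatal markers were not alone in this: 8 oligodendrocyte markers summed to 431, 574 and 590 CPM and 8 astrocyte markers to 1356, 1500 and 1552 CPM, both lowest in replicate 1 and highest in replicate 3. The striatal sums were 680, 880 and 958 CPM, with Ppp1r1b at 50.1, 60.9 and 79.3 CPM and Adora2a at 3.73, 3.79 and 12.4 CPM. Gnal, the alpha subunit of the same striatal heterotrimer, was also lowest in replicate 1 but highest in replicate 2. The part of RNA from any of these cells in the values of Gng7 and Gnal was not tested.

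**Figure D5:**
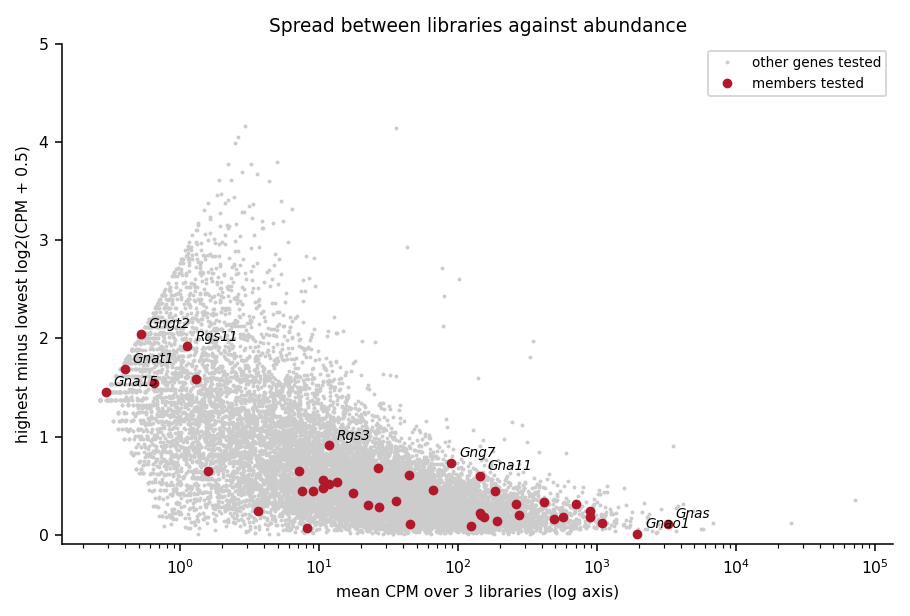
Range of log2(CPM + 0.5) over the 3 libraries against mean CPM on a log axis, with members in red and the other genes tested in grey. Members lie within the cloud of genes of like abundance, with Gng7 (0.73) and Gna11 (0.60) above the median of 0.35 of all genes at 10 CPM or more, and Gnao1 (0.0066) at the lower edge.

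Other genes of the pathway were taken from 9 lists of 57 genes in the tables. At 1 CPM or more in every library stood 49 of them, against 37.9% of all gene symbols. Of the 51 that were tested, edgeR called 0 as varying at an adjusted p of 0.05 (0.244% of all genes tested) and limma called 1, Kalrn (0.0812%). At an unadjusted p of 0.05 there were 5 in edgeR (Grk4, Grk5, Kcnj6, Kalrn and Akap10), against 7.22% of all genes, and 6 in limma, against 4.85%. Kalrn, a gene known from dendritic spines, was at 4644, 3462 and 2487 CPM, lowest in replicate 3. It was not called in edgeR (adjusted p = 0.0551) and was called in limma (adjusted p = 0.000703).

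Among effectors of alpha subunits, 8 of 9 adenylyl cyclases passed 1 CPM in all 3 libraries. The genes named from each list include the 2 with the most CPM. This choice takes no account of length and gives no order of abundance per message. The calmodulin-stimulated Adcy1 was at 446 ± 14.0 CPM and Adcy9 at 117 ± 12.2 CPM. All 4 phospholipase C beta genes did so, with Plcb1 at 369 ± 18.3 CPM and Plcb4 at 234 ± 22.2 CPM. The GIRK channel subunits, which beta-gamma dimers open, all did so as well, with Kcnj3 at 96.8 ± 4.23 CPM and Kcnj6 at 57.0, 64.7 and 34.4 CPM. All 4 GIRK genes were highest in replicate 2. In the list of G12/13 and Gq effectors that holds Kalrn, 6 of 6 genes passed 1 CPM in all 3 libraries. The other gene named from it, Arhgef12, was at 533 ± 17.7 CPM.

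Receptor kinases and arrestins end signalling at the receptor, and 6 of 8 reached 1 CPM in every library. Arrb1 was at 310 ± 29.7 CPM and the receptor kinase gene Adrbk1 at 82.7 ± 4.46 CPM. Of 11 further regulators of alpha subunits 8 did, with Gap43, a growth cone protein that acts on Go, at 824 ± 29.8 CPM and Ccdc88a at 170 ± 16.3 CPM. Among binders and chaperones of beta-gamma dimers 4 of 5 did, with Gnb2l1 at 51.3 ± 2.74 CPM, Pdcl3 at 16.3 ± 3.67 CPM and 0 counts of the photoreceptor gene Pdc. Anchors of RGS proteins reached 1 CPM in 3 of 4 cases, with Gpr179, which serves retinal bipolar cells, at 0.794, 1.004 and 0.870 CPM. Of the 6 proteins that carry an RGS domain outside the numbered family all did, with Snx13 at 104 ± 21.9 CPM and Snx25 at 66.5 ± 4.85 CPM.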

How the data were processed

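Per library, the authors deposited whole-number read counts by gene symbol. The submitters' processing notes name mm10, STAR 2.0.0e and HTSeq, but no settings; for annotation and strandedness, nothing is given in the sources used here. Lines that name no gene held 27.2 to 28.3% of the counts and were left out of totals and tests. CPM was computed over the total of named genes. CPM per kb used merged exons of GENCODE M21 on mm10, matched by symbol for all 53 members. Log2 values used a pseudocount of 0.5 CPM. The members and lists were chosen with earlier results of these data known. Some genes of these families are not reported here.

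Variation was tested with edgeR 4.0.16 (TMM, trended dispersion, deviance of an intercept-only fit against chi-square with 2 degrees of freedom, Benjamini-Hochberg adjustment over all genes with at least 10 counts in a library). The test and a limma 3.58.1 variance test were tested on simulated data. Contrasts within a library used an exact sign-flip permutation test. The unit is a library. Alternatives changed the length, pseudocount, threshold, count minimum, dispersion (common) or scaling (size factors of DESeq2 1.42.0), or left out each replicate. Genes were given in every library if they were among the 2 highest of a class per kb, in a pair with both genes at 1 CPM or more on average, called as varying, or among the 6 widest ranges at a mean of 5 CPM or more; the others are given by level. Promoters came from RefSeq on GRCm38.p6. Software was scipy 1.17.1, pandas 2.3.3 and numpy 2.4.6 under Python 3.11.15, and R 4.3.3. The grouping by chromosomal neighbours and the promoter comparison were added after positions and levels were seen.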

Additional observations from a re-analysis of the deposited data

How the results depend on the processing

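No paired analysis of conditions was possible because all 3 libraries form 1 group, and the only pairing was of genes within a library. The count of varying members was 0 in edgeR with DESeq2 size factors, with other count minimums, in limma and without any 1 replicate, but 4 with a common dispersion and 5 at an unadjusted p of 0.05. The number of pairs with the first gene higher in every library stayed within 1.5 times of 18 under all alternatives. Of 120 repeated contrasts 1 turned, Rgs14 against Rgs12 without length (-0.31). Each pair had 1 direction in all 3 libraries, so leaving out a replicate could not turn a contrast or move that number. With 20 pairs in all, the number could not rise past the limit either. Members at the detection level stayed within 1.5 times of 38 at 0.5 and 5 CPM and without any 1 replicate. A lower threshold or the loss of a replicate can only raise this count. With 53 members it could not rise past the limit, so only the setting of 5 CPM could have moved it.

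Class shares moved by more than the spread between replicates with the length used, which changes the weight of each gene by construction. With the longest transcript, the Gi/o, Gs, Gq/11 and G12/13 classes held 41.6%, 51.3%, 6.31% and 0.800% of alpha subunits, Gnb1 81.7% of beta, Gng3 68.6% of gamma, and R4, R7 and R12 58.9%, 16.7% and 8.06% of RGS. In CPM without length the same shares were 41.1%, 50.6%, 7.19%, 1.02%, 86.0%, 51.0%, 56.9%, 17.8% and 2.82%, and RZ held 22.4%. A size factor cancels in a share within a library, and leaving out 1 of 3 libraries cannot move a mean by 1 SD, so neither tests the stability of these shares. Genes under 1 CPM rest on few counts, so that differences among them were not detectable at this depth.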
